A study of Homo sapiens with 6 samples.

Results

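EGR1, EGR2, EGR3 and EGR4, the zinc finger transcription factors of the early growth response family, were examined in Jurkat chromatin together with 5 genes that act around them: the co-repressors NAB1 and NAB2, the regulator SRF, the early response gene IER2 and the surface activation marker CD69. They are 9 of 20037 protein-coding genes. Every peak that overlapped the RefSeq span of a member extended by 50 kb to each side was taken, which gave 276 peaks from 6 libraries. Merged where they overlapped by at least 1 base, these peaks formed 62 regions.

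Jurkat is an established line of human T-cell leukaemia. Open chromatin was mapped by ATAC-seq, in which a transposase cuts accessible DNA and leaves sequencing adapters behind. Each library began with 50000 cells, cultured in RPMI1640 with fetal bovine serum, whose nuclei were isolated with detergent and digitonin. The 3 libraries of the normal gravity group are called NG 1 to NG 3. For the 3 libraries of the simulated microgravity group, SMG 1 to SMG 3, isolated nuclei and not living cells were turned in a random positioning machine at 30 degrees per second for 30 min at 37 °C, so the comparison concerns nuclei without a cell around them. For every library of both groups, a lysis of 3 min and a transposition of 30 min at 37 °C are listed. Whether the transposase worked during the turning is not stated. If it did not, it is also not stated whether NG nuclei had a further still incubation of the same length. Turning and incubation therefore cannot be told apart. The labels name no stimulus of the T-cell receptor in either group.

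Immediate early genes are transcribed within minutes of a stimulus, without new protein synthesis, because the factors that switch them on are already in the nucleus. SRF binds CArG boxes together with ternary complex factors such as ELK1 and ELK4 or with the actin-regulated co-activators MRTFA and MRTFB, and CREB-family factors bind cyclic AMP response elements (CREs) nearby. EGR proteins bind GC-rich sites, NAB1 and NAB2 dock on EGR1, EGR2 and EGR3 and repress them, and in T cells EGR2 and EGR3 are known for restraining the response to antigen.

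The bases just before the transcription start show which of these elements lie there at each gene, while the open stretch can reach further. The sequences below are the 250 bases before a RefSeq start (GRCh38.p14), written 5′ to 3′ on the strand of the gene. Capitals mark CArG boxes, the CRE core TGACG and the EGR sites GCGTGGGCG and GCGGGGGCG, each searched on both strands, so that a core on the other strand reads CGTCA. The first 4 genes had a peak at this start in all 6 libraries, and NAB1 and NAB2 are shown because their EGR sites fell outside every peak.

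EGR1, chr5:138465229-138465478, plus strand: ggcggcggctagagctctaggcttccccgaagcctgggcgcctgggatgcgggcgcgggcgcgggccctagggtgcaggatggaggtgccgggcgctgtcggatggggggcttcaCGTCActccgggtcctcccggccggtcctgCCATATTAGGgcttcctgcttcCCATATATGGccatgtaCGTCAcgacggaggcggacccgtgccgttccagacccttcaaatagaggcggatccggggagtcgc

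EGR2, the third RefSeq start, chr10:62816367-62816616, minus strand: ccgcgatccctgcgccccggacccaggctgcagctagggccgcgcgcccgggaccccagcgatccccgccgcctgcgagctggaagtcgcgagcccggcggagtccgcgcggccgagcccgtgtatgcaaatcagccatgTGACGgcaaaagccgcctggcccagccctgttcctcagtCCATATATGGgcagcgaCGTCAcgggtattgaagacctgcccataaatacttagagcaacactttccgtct

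SRF, first RefSeq start, chr6:43171019-43171268, plus strand: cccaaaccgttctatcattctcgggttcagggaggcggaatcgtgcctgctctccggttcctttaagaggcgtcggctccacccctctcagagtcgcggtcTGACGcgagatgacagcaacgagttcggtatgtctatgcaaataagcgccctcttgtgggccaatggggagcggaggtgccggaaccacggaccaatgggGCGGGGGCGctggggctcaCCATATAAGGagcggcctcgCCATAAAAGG

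EGR4, chr2:73293549-73293798, minus strand: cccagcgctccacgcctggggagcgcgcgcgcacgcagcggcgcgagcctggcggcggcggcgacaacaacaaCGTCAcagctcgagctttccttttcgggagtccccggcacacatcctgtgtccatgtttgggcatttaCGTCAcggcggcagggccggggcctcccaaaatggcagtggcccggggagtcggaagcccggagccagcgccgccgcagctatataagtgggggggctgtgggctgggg

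NAB1, first RefSeq start, chr2:190648645-190648894, plus strand: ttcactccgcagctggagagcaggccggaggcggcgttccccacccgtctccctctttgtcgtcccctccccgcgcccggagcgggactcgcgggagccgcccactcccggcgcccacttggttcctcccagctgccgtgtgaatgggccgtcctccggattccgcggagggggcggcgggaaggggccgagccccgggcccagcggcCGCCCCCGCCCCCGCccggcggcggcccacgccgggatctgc

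NAB2, chr12:57088864-57089113, plus strand: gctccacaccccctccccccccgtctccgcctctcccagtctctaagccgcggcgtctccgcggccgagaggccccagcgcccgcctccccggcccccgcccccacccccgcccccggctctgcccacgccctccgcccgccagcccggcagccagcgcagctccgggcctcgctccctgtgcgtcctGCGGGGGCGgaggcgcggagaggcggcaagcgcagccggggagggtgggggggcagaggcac

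EGR3 and CD69 have no entry in the table of start sequences.

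In the EGR1 sequence, CArG boxes began 105 and 83 bases before the start, and CRE cores flanked them at 135 and 66. The SRF gene, which encodes the factor that reads CArG boxes, carried 2 of its own at 30 and 10 bases before its start, a CRE core at 149, an ETS core (CCGGAA, the kind of site that ternary complex factors bind) at 70 and an EGR site at 49. EGR2 had 1 CArG box at 71 with CRE cores at 110 and 54. EGR4 had CRE cores at 177 and 109 and no CArG box in these letters. Among 22175 start windows of protein-coding genes, each running from 250 bases before the start to 50 after it, 1.24% held a CArG box, 27.9% a CRE core, 21.2% an ETS core and 6.48% the EGR site GCGGGGGCG. Only 8 windows held 2 or more CArG boxes, and 3 of these also held a CRE core: those of EGR1, SRF and ACTG2, a smooth muscle actin gene. A match describes letters and shows neither binding nor a cause.

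Depth and identity of the libraries bear on all values that follow. The lists held 37782 to 43713 peaks. The lowest background recovered from the deposited values was smallest in NG 1, at 1.17, against 1.42 to 1.77 in the other 5. Whether such heights and backgrounds count fragments, reads or cut ends is not given in the sources used. Every peak name of SMG 3 carries the word normalized, a word that the sources used here leave undefined. Of 10 T-cell marker genes, 9 had a peak at a start in all 6 libraries, against 1 of 5 B-cell, 0 of 5 myeloid, 0 of 4 NK-cell, 0 of 4 epithelial and 1 of 4 fibroblast markers. A weaker peak in all nuclei and the same peak in fewer nuclei cannot be told apart here. No label ties the 3 libraries of a group to 3 independent cultures, so p-values measure a spread between libraries that may be technical. With 3 against 3, the exact permutation test cannot give a two-sided p under 0.1, so groups that do not overlap are the clearest separation the design can show.

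Peak strength is given as a score percentile, the rank of a peak's −log10 q-value within its own library on a scale to 100, because raw scores move with depth. At the EGR1 start, the percentiles were 97.4, 99.8 and 99.3 for the NG libraries, here and below in the order of their replicate numbers, and 99.4, 98.5 and 97.4 for the SMG libraries. NG 1 and SMG 3 were the low libraries of their groups, and the groups overlapped. The means were 98.8 ± 1.24 in NG and 98.4 ± 0.978 in SMG (SD, n = 3), with an exact permutation p of 0.8. The peak, within chr5:138464003-138465533, reached from 1330 to 1476 bases before the start to 37 to 54 bases after it, so both CArG boxes and both CRE cores shown above lay under it in every library. Its summit, the most-cut point, sat 401 ± 23.5 bases before the start (SD, n = 6), not on the CArG boxes shown above. The summit lay further from the start than the bases searched for motifs, so whether a CArG box lies at it was not tested. The recovered height at the summit was 86, 199 and 144 in NG and 149, 151 and 118 in SMG. The shallow NG 1 had the lowest height, while the fold over local background ranged only from 7.50 to 11.2.

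EGR2 showed the same order of strength, but at 1 of its 3 RefSeq starts. At the third, 62816366, the percentiles were 94.7, 99.4 and 99.6 in NG and 98.8, 99.0 and 97.3 in SMG, and the windows at 62819167 and 62818775 had no peak in any library. NG 1 was the lowest of all, and the groups overlapped (97.9 ± 2.77 and 98.4 ± 0.939, SD, n = 3, exact permutation p = 1). The region, chr10:62816291-62817479, lies inside the longer EGR2 transcripts. Its summits fell within 19 bases of each other, at 392 ± 9.14 bases before the start (SD, n = 6), and its fold over background was 8.40 to 12.6. The CArG box and both CRE cores of EGR2 were under the peak in all 6 libraries.

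SRF and EGR4 had weaker start peaks. At the first SRF start the percentiles were 84.7, 78.1 and 86.9 in NG and 89.6, 84.1 and 61.8 in SMG (83.2 ± 4.59 and 78.5 ± 14.7, SD, n = 3, exact permutation p = 0.8). SMG 3 was the low library, and the groups overlapped. The summit lay 117 ± 23.7 bases before the start (SD, n = 6), within the bases searched for motifs, unlike the summits at EGR1 and EGR2. The peak covered both CArG boxes, the CRE core, the ETS core and the EGR site in all 6 libraries. The second SRF start, 43172396, had no peak in any library. At EGR4, the percentiles were 70.2, 19.0 and 65.4 in NG and 75.3, 69.4 and 53.3 in SMG. NG 2 stood far below the others although its list is the longest, and the groups overlapped (51.5 ± 28.3 and 66.0 ± 11.4, SD, n = 3, exact permutation p = 0.6). The summit was 170 ± 24.4 bases before the EGR4 start (SD, n = 6), next to the CRE core at 177. In NG 1 and SMG 1 the EGR4 peak ended short of the start, at -112 and -55 bases from it. The CRE core at 109 lay under a peak in 5 libraries.

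**Figure D1:**
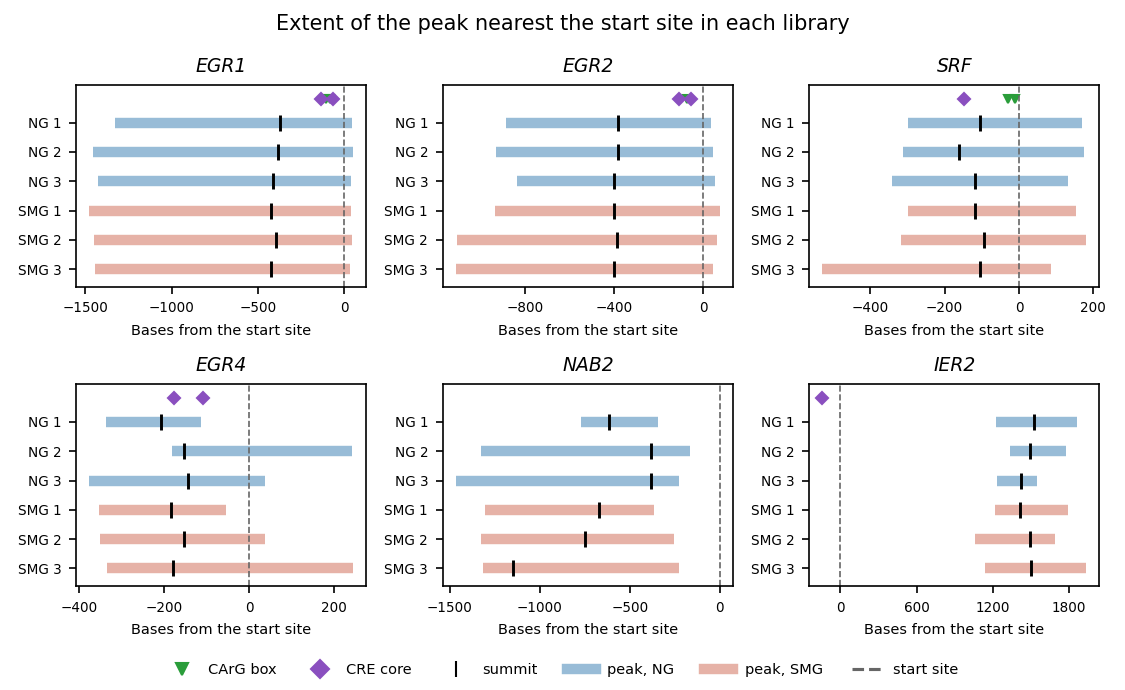
Peak extent (bars, NG in blue and SMG in red) and summit (black tick) in each library against bases from the start site of 6 genes, with CArG boxes and CRE cores of the start window as markers. The EGR1, EGR2 and SRF peaks cross the start (dashed line) in all 6 libraries, those of NAB2 stop 168 to 367 bases before it and those of IER2 begin 1062 to 1337 bases after it.

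NAB1 and NAB2 encode the co-repressors, and their starts lay beside peaks and not under them. At NAB1, 1 peak region ended before the first start (chr2:190648182-190648852) and another began after it (chr2:190649129-190650095), both in all 6 libraries. The 276 bases between them, 190648853 to 190649128, had no peak in any library and were 81.2% G and C. The GCGGGGGCG sites that begin 42 and 36 bases before the first NAB1 start, which overlap each other and GC boxes (GGGCGG), and a GCGTGGGCG site just after that start lie in this gap. The upstream region had percentiles of 20.3, 39.4 and 52.9 in NG and 29.4, 71.5 and 7.46 in SMG, with the lowest and the highest library both in SMG. The downstream one had 25.8, 53.2 and 49.8 in NG and 52.2, 56.8 and 44.1 in SMG, again overlapping. A stretch without a called peak is not thereby shown to be closed.

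At NAB2 the nearest region, chr12:57087647-57088946, is shared with the end of NEMP1, the neighbouring gene for a nuclear envelope protein. Its percentiles were 48.7, 72.0 and 64.7 in NG and 69.6, 55.2 and 80.6 in SMG (61.8 ± 11.9 and 68.5 ± 12.7, SD, n = 3, exact permutation p = 0.6). The groups overlapped, and 3 libraries, NG 2, NG 3 and SMG 3, had a peak that reached into the NAB2 start window. The EGR site 62 bases before the NAB2 start lay under a peak in 0 of 6 libraries.

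IER2, an immediate early gene for a nuclear protein, had no peak at its start in any library, although its start window holds a CRE core at 140 bases and an ETS core at 26. Its nearest region, chr19:13151473-13152369, lies inside the gene and began 1.06 kb beyond the start. The percentiles there were 30.0, 67.7 and 58.0 in NG and 49.4, 51.1 and 71.4 in SMG, so both the lowest value, in NG 1, and the highest, in SMG 3, fell outside the other group's range and the groups overlapped.

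For EGR3 and CD69, the windows used were 1 kb to each side of both gene ends. A peak within 1 kb of the right-hand end of EGR3 (position 22693480 of chromosome 8) was present in all 6 libraries, with percentiles of 62.3, 45.7 and 49.3 in NG and 35.0, 54.2 and 30.7 in SMG. The lowest values were those of SMG 1 and SMG 3, SMG 2 lay within the NG range, and the exact permutation p was 0.3 (52.4 ± 8.70 and 40.0 ± 12.5, SD, n = 3). The region there, chr8:22693482-22695630, broke into up to 3 separate peaks in a library, and its summits spread over 710 bases, against 56 at EGR1.

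CD69, the C-type lectin that appears early on the surface of activated T cells, had only weak or single-library peaks at its ends. SMG 3 alone had a peak over the right-hand end (chr12:9760834-9761052, percentile 62.1, height 42 at the summit) and another inside the gene (chr12:9758187-9758392, percentile 59.2). All 6 libraries held an intragenic region (chr12:9758605-9759151) and a stronger one 3.60 kb beyond the right-hand end (chr12:9764503-9765493). In the latter the percentiles were 82.9, 91.9 and 87.7 in NG and 93.6, 81.7 and 96.8 in SMG, which overlapped (87.5 ± 4.53 and 90.7 ± 7.99, SD, n = 3, exact permutation p = 0.6), and the summits fell within 27 bases of each other. SMG 3 also had more local background there, 4.26 times its own lowest background against 1.98 to 2.64 times in the other 5 libraries. In the intragenic region the ratio was 3.41 in SMG 3 and 1.76 to 2.07 elsewhere, while 49.8 kb to the left, at chr12:9701871-9702684, it was 1.00 in all 6. The series holds no control library, so this background may itself include signal of nearby peaks in the same library. The part of this background in the SMG 3 peaks at CD69 was not tested.

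Of the 9 genes, 5 (EGR1, EGR2, EGR3, EGR4 and SRF) had a start or gene-end peak in all 6 libraries, against 43.2% of all 20037 genes. Ordered by the mean percentile over 6 libraries, they ran EGR1 (98.6), EGR2 (98.1), SRF (80.9), EGR4 (58.8) and EGR3 (46.2). Compared within each library, EGR1 was above EGR2 in 4 of 6 libraries, EGR2 above SRF in 6 of 6, SRF above EGR4 in 6 of 6 and EGR4 above EGR3 in 5 of 6. By this ranking the order held in every library for EGR2 over SRF and for SRF over EGR4. It did not for the first and last pairs. Across libraries the ranges of SRF and EGR4 overlapped, while the lowest EGR2 library (94.7) lay above the highest SRF library (89.6). With peaks ranked by fold over local background, SRF had 67.2, 51.1 and 70.0 in NG and 74.2, 61.2 and 31.7 in SMG. EGR4 then had 71.8, 14.8 and 64.9 in NG and 76.35, 69.7 and 58.9 in SMG, above SRF except in NG 2 and NG 3. By fold, EGR1 lay between 74.9 and 94.0 and was below EGR2 in every library. By −log10 q, the 8651 genes with such a peak in all 6 libraries had a median of 82.2. Among them EGR1 stood at the 96.1 percentile and EGR2 at the 94.3, SRF near the middle at 47.1, and EGR4 and EGR3 low, at 15.1 and 6.02. EGR3 was read in the wider gene-end windows and EGR1, EGR2, SRF and EGR4 in start windows, so its place rests on an unlike window. The genes most like EGR1, by the sum of absolute differences over the 6 libraries, were BORA and MZT1, which share a start window (1.48 percentile points), AKAP8L (2.21), KBTBD8 (2.62) and RPL39L (2.68). In no member did the groups separate at the start, where 4.22% of the 8651 genes had all SMG libraries above all NG libraries and 6.94% the reverse.

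Over whole loci, start regions included, SRF and NAB2 had the most regions held by all 6 libraries, 7 of 9 and 5 of 11. EGR1 had the fewest, 1 of 6, its start region. Around EGR1, 4 of the other 5 regions were nearest to REEP2, a gene for an endoplasmic reticulum protein, and they were weak, with mean percentiles of 0.555 to 39.2 over the 1 to 4 libraries that held them. Around NAB2, a region inside NEMP1 (chr12:57077960-57079278) reached 97.6, 98.5 and 98.1 in NG and 98.7, 98.3 and 98.2 in SMG. By this rank it was about as strong as the EGR1 start and far stronger than the NAB2 start. Its fold over local background was 11.7 to 14.2, against 7.50 to 11.2 at the EGR1 start. A region within MYO1A, a myosin gene, lay between 86.2 and 91.5, and one at the end of STAT6, the factor that carries interleukin-4 signals, between 72.6 and 87.4. Near SRF, a region inside PTK7, a receptor-like kinase gene, lay between 92.3 and 97.2, and a region inside SRF itself, 2.99 kb from its start (chr6:43174260-43174923), between 83.9 and 92.6. At EGR3, 3 further regions were held by all 6 libraries, 1 within BIN3, 1 over an end of BIN3 and 1 nearest to PEBP4. Their mean percentiles were 60.1 to 73.3. At EGR4 a region at the end of FBXO41 (chr2:73284093-73285497) had 58.2, 80.2 and 76.2 in NG and 71.4, 65.7 and 82.5 in SMG. It was stronger than the EGR4 start in NG 2, NG 3 and SMG 3 and weaker in the other 3 libraries. EGR2 had 1 region besides its start, over an end of ADO (chr10:62804189-62805631), a thiol dioxygenase gene, with 85.8, 88.2 and 79.6 in NG and 76.5, 82.5 and 79.3 in SMG. In each of these regions that all 6 libraries held, the groups overlapped.

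**Figure D2:**
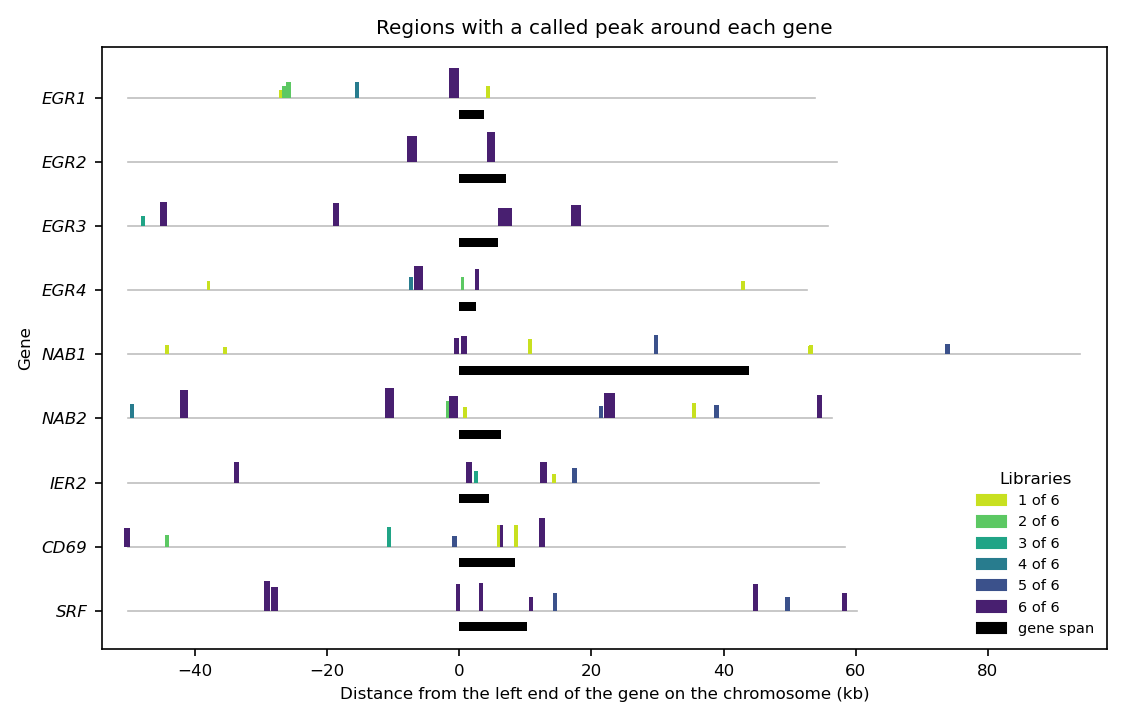
Each bar is a region with a called peak, placed by distance in kb from the left end of the gene, with colour for the number of libraries (1 to 6) and height for the mean score percentile; black bars are the genes. EGR1 has 1 region in all 6 libraries, at its start, whereas SRF has 7 spread over its locus.

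All 6 libraries held 29 of the 62 regions (46.8%), against 34.6% of the 69562 regions of the whole series, and 14 (22.6%) were in a single library, against 34.9%. No region at these genes was held by all SMG and no NG libraries, or by all NG and no SMG libraries, which 0.411% and 0.26% of all regions were. Of 8 regions held by 5 libraries, 3 lacked SMG 3, 2 lacked NG 3, 2 lacked SMG 1 and 1 lacked NG 1. The single-library regions were mostly weak, with a median percentile of 6.93.

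The comparison of gravity conditions asks whether these peaks differed between SMG and NG nuclei. Over the 29 regions held by all 6 libraries the groups separated in 0, in either direction, where 5.34% of all such regions had SMG above NG and 5.06% NG above SMG. SMG had the higher mean in 15 and NG in 14. The median difference, SMG minus NG, was 0.22 percentile points, against 0.0765 over all 24103 such regions, and the median percentile was 67.9 against 68.4. The widest mean differences were at regions with a large spread between libraries. At CUL9, 0.401 kb from SRF (chr6:43181907-43182392), the percentiles were 1.27, 32.5 and 10.1 in NG and 20.0, 39.5 and 58.1 in SMG (exact permutation p = 0.2). At CLECL1 on the CD69 side (chr12:9701871-9702684) they were 12.9, 31.4 and 59.6 in NG and 62.8, 58.8 and 54.1 in SMG (exact permutation p = 0.3). In both, NG 1 was lowest and the groups overlapped.

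**Figure D3:**
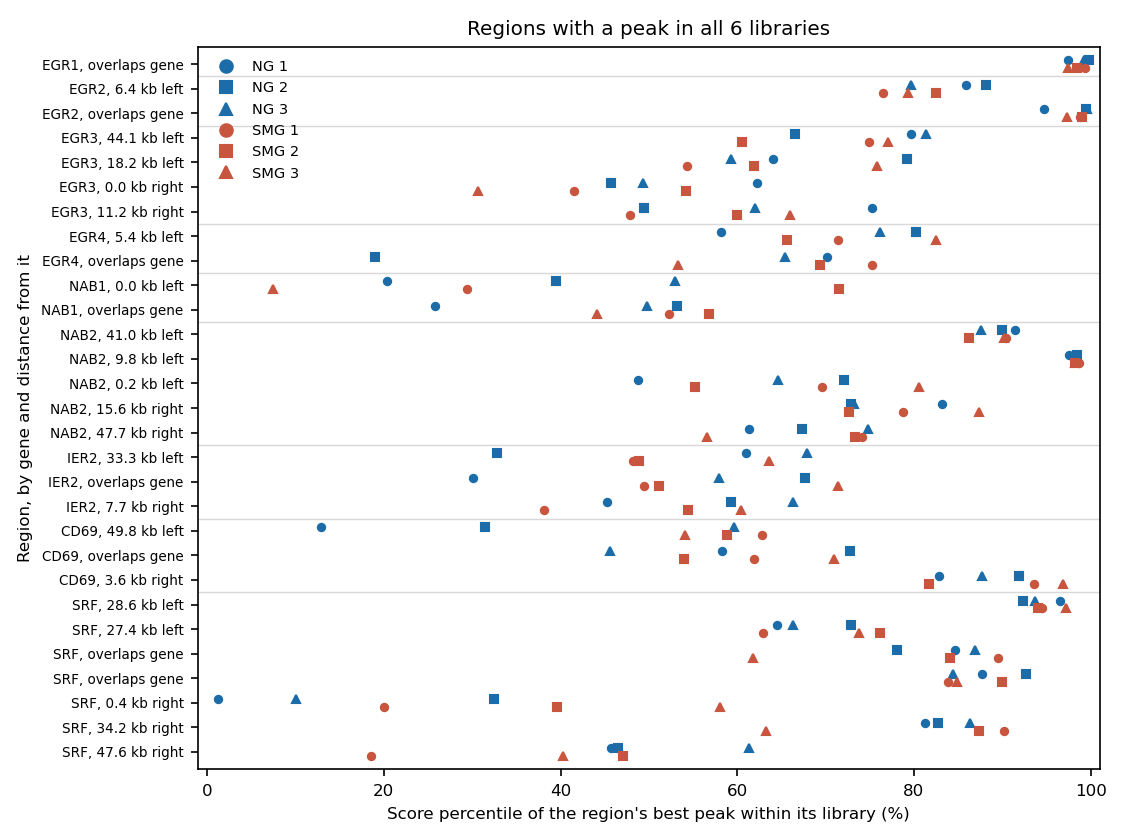
Score percentile (x axis, percent) of the best peak in each library for the 29 regions with a peak in all 6 libraries, named by gene and distance in kb from it; circles, squares and triangles are replicates 1 to 3, NG in blue and SMG in red. The EGR1 and EGR2 starts and the NAB2 region 9.8 kb to the left lie above 94, and NG and SMG overlap in every row.

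The 9 loci together held 45, 50 and 44 peaks in NG and 43, 51 and 43 in SMG. These were 46.3 ± 3.21 and 45.7 ± 4.62 peaks (SD, n = 3), or 1.14 ± 0.0538 and 1.10 ± 0.0934 per 1000 peaks of the library. The number of peaks separated the groups at 0 of the 9 genes, where 1.85% of all genes had SMG above NG and 0.843% NG above SMG. The nearest to a separation was IER2, with 5, 7 and 6 peaks in NG and 4, 5 and 3 in SMG. NG 1 and SMG 2 shared the value of 5, and the exact permutation p was 0.2. CD69 had 5, 4 and 4 peaks in NG and 5, 4 and 8 in SMG, and the 8 of SMG 3 include both peaks that no other library had. EGR1 had 2, 3 and 3 peaks in NG and 3, 4 and 1 in SMG, with SMG 3 down to the start peak.

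The length of DNA under peaks, a measure added after the data had been seen, separated the groups at 2 of the 9 genes, in opposite directions. At EGR4 it was 0.999, 1.47 and 1.54 kb in NG and 1.71, 2.06 and 1.88 kb in SMG, so every SMG library lay above every NG library (1.34 ± 0.294 and 1.88 ± 0.177 kb, SD, n = 3, exact permutation p = 0.1, adjusted p = 1 over all genes). At IER2 it was 2.23, 2.77 and 2.75 kb in NG and 2.04, 2.18 and 1.90 kb in SMG, so every NG library lay above every SMG library (2.58 ± 0.308 and 2.04 ± 0.138 kb, SD, n = 3, exact permutation p = 0.1, adjusted p = 1 over all genes). Among all genes, 6.29% had SMG above NG by this measure and 1.41% the reverse. Neither separation was present with a flank of 10 kb (exact permutation p = 0.3 for EGR4 and 0.5 for IER2) or 100 kb (0.3 and 0.7). With peaks of −log10 q of at least 5 alone, EGR4 stayed separate and the IER2 difference turned to 0.138 kb more in SMG.

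The strongest peak of each locus separated the groups at EGR3, with percentiles of 79.7, 79.3 and 81.3 in NG and 74.9, 61.9 and 77.1 in SMG. Every NG library lay above every SMG library (80.1 ± 1.09 and 71.3 ± 8.18, SD, n = 3, exact permutation p = 0.1, adjusted p = 0.881 over 16986 genes), and SMG 2 was the lowest. Without SMG 2 the difference, SMG minus NG, went from -8.80 to -4.12 percentile points. Of the 16986 genes with a peak at the locus in every library, 5.13% had SMG above NG in this measure and 6.22% the reverse, and 1 of 9 members did so in the NG direction. These values join different regions. The strongest EGR3 peak lay 44.1 kb to the left within BIN3 in 4 libraries. In NG 2 and SMG 2 it lay 18.2 kb to the left, over an end of BIN3. Within each of these regions alone the groups overlapped (exact permutation p = 0.5 and 0.6).

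**Figure D4:**
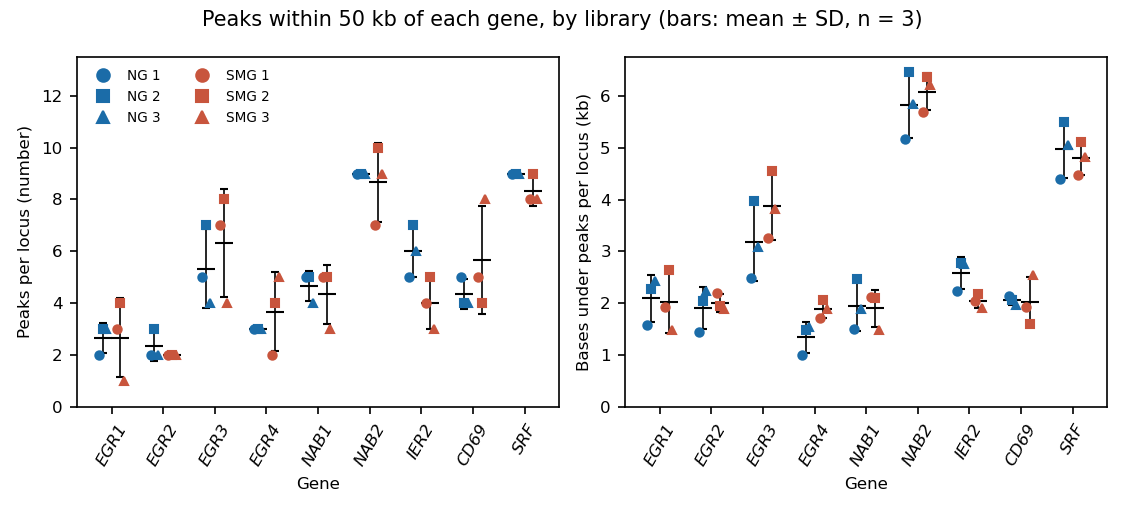
Number of peaks (left) and kb under peaks (right) within 50 kb of each gene by library, NG in blue and SMG in red, with bars for mean ± SD (n = 3). NG and SMG overlap in peak number at all 9 genes; in kb under peaks EGR4 has all SMG libraries above and IER2 all NG libraries above.

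Other genes of the pathway were read from 3 lists, and 16 of their 38 genes (42.1%) had a start or gene-end peak in all 6 libraries, near the 43.2% of all genes. Another 16 (42.1%) had none in any library, near the 44.2% of all genes that had none. Of 5 partners of SRF, 4 did: the ternary complex factors ELK1 (mean percentile 94.9) and ELK4 (74.1) and the co-activators MRTFA (94.2) and MRTFB (38.3). MRTFA had 97.0, 96.6 and 97.3 in NG and 91.2, 93.3 and 90.1 in SMG, and MRTFB 68.4, 43.5 and 34.4 in NG and 19.0, 31.3 and 32.8 in SMG. In both, every NG library lay above every SMG library (exact permutation p = 0.1, adjusted p = 0.896 over the 8651 genes with such a peak in all 6 libraries). Of 25 other immediate early genes, 12 had such a peak in all 6 libraries and 8 in none. JUN, a subunit of AP-1, was the highest of all 3 lists at 98.5. MCL1, which protects cells from apoptosis, had 7.0, 44.5 and 36.3 in NG and 69.8, 77.6 and 65.4 in SMG, with every SMG library above every NG library (exact permutation p = 0.1, adjusted p = 0.896 over the same 8651 genes). Separations at 3 of the 16 genes stand beside 4.22% and 6.94% of those 8651 genes in the SMG and NG directions. Of 8 genes of T-cell activation, 0 had a start or gene-end peak in all 6 libraries and 7 had none.

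Base composition of the start windows differed widely between the members. The EGR1 window held 69.3% G and C, EGR2 at its open start 63.7%, SRF 59.3% and EGR4 71.0%, and these 4 had a peak in all 6 libraries. The NAB1 windows at 77.0 and 82.0% and the NAB2 window at 78.3% had a peak in 5, 2 and 3 libraries. Over all start windows, the share with a peak in all 6 libraries was 57.2% between 65 and 70% G and C, 33.1% between 75 and 80%, 7.71% at 80% and above, and 3.13% below 40%. IER2, at 69.7%, had no peak, as had 30.8% of windows in its bin, and the third NAB1 start, at 40.7%, had none either. The part of base composition in the missing peaks at NAB1 and NAB2 was not tested.

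**Figure D5:**
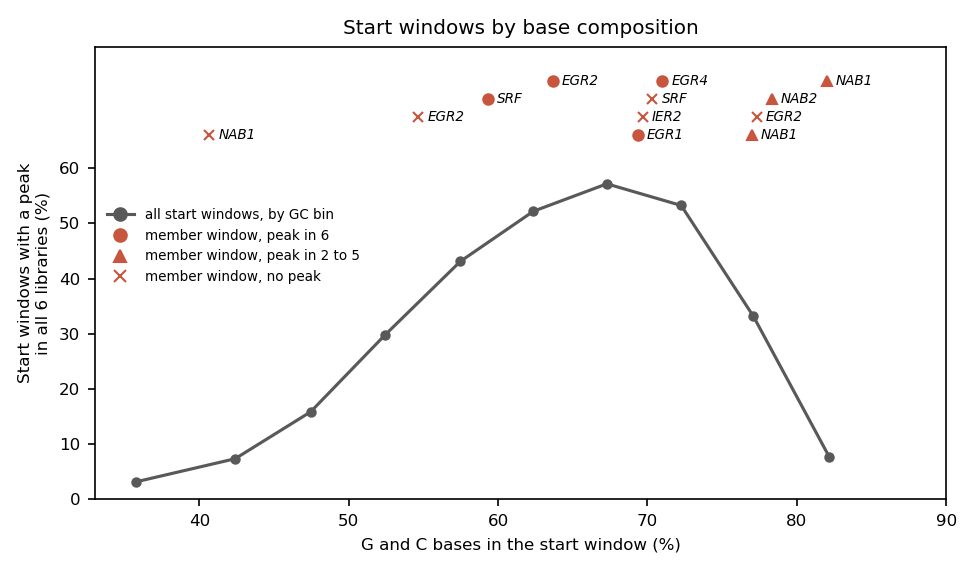
Grey points give the percent of start windows with a peak in all 6 libraries (y axis) by percent of G and C bases (x axis); red symbols above the curve mark the members' windows at their own percent of G and C, and their height has no meaning. Members with a peak in all 6 libraries lie between 59.3 and 71.0%, and the NAB windows at 77.0% and above had peaks in 2 to 5.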

How the data were processed

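Peaks were called by the authors in each library separately with MACS2 on hg38, per the submitters' processing notes, which also list FastQC, BWA, Bowtie and SAMtools; their versions and settings, duplicate removal and read shifting are not given in the sources used. Lists were deposited with 10 columns. The deposited score equals 10 times the −log10 q for 99.955% or more of the peaks of every library. As deposited, fold enrichment is a linear ratio of summit height to local background, and −log10 of p and of q are as the authors' peak caller wrote them.

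Read counts were not used. Summit height and local background were recovered from the fold and the p-value with MACS2's formulas, solved within 0.001 for 99.9% of peaks or more, and the lowest background served as a measure of depth.

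Genes and spans are from RefSeq (GRCh38.p14), where all 9 members were found by symbol, and start sequences were found for 7. Exons and introns were not assigned. Peaks were ranked by −log10 q within a library. Groups were compared over libraries, 3 against 3, with two-sided exact permutation tests (10 distinct splits) for every gene or region. Percentiles were tested only where every library had a peak. Benjamini-Hochberg adjustment ran over all genes tested for a measure. A gene or region was called where the groups did not overlap. The tests were checked on simulated peak numbers. Named genes are the 9 members, of the pathway lists those whose groups do not overlap and the 3 highest, the 5 genes most like EGR1, and the gene nearest each region. Members and lists were chosen with earlier results of these data known. Alternatives changed the flank, the peak threshold, the ranking, the start window and the overlap rule, or left out a library. Scripts used Python 3.11.15, pandas 2.3.3, NumPy 2.4.6 and SciPy 1.17.1.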

Additional observations from a re-analysis of the deposited data

How the results depend on the processing

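Counts of members or regions whose groups do not overlap moved with the settings. By kb under peaks, 2 members separated in the main setting, 0 with a flank of 10 kb, 0 with 100 kb and 1 with −log10 q of at least 5. By the strongest peak, 1 separated, and 0 with a flank of 10 kb or with ranking by fold. By peak number, 0 separated, but 1 with a flank of 100 kb (EGR4, SMG above) and 1 with equal numbers of peaks per library (IER2, NG above). Regions held by all 6 libraries fell from 29 to 13 when a peak had to cover at least 50% of the region. Leaving out 1 library at a time gave 0 to 2 members for peak number (2 without SMG 2), 1 to 3 for the strongest peak (3 without NG 1 and without SMG 3), 2 to 3 for kb under peaks, 0 to 1 for the start peak (1 without NG 1 and without SMG 2), 1 to 4 regions of the 29 (4 without SMG 2, 3 without NG 2), 29 to 32 regions in all libraries and 0 to 1 held by 1 group alone (1 without SMG 1, SMG 2 or SMG 3). With 2 libraries against 3, groups separate more easily by construction.

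The labels do not say whether replicate numbers pair the libraries. Correlations of deviations from the group mean between same-numbered libraries were 4.59e-05, -0.00681 and -0.0158, against -0.0152 to 0.0238 between differently numbered ones. Percentiles are ranks within a library, so these values cannot show a shift shared by whole libraries. With the replicate block, the count was of cases whose 3 same-numbered differences had the same sign, which groups that overlap can also show. These were 1 member by peak number (NG above), 4 of the 29 regions (SMG above in 1, NG above in 3) and 3 members by kb under peaks. The share of such cases over all genes or regions was not computed.

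Directions that turned, all in differences whose groups overlap except IER2, are given as SMG minus NG. In kb under peaks they were EGR1 0.114 (10 kb), 0.0443 (−log10 q of at least 5) and 0.0347 (equal numbers), CD69 0.0173 (10 kb), 0.121 (100 kb), 0.435 (−log10 q) and 0.0760 (equal numbers), and IER2 0.138 (−log10 q). In percentile points they were SRF -0.92 (10 kb, strongest peak) and, ranked by fold, EGR2 -1.60 and NAB2 -0.35 for the strongest peak, EGR2 -0.43 at its start, and regions held by all 6 libraries at EGR2 -0.43, CD69 -3.67, NAB2 0.200 and -0.35 and NAB1 3.66. In peak number it was NAB2 with 0.667 more peaks in SMG (100 kb, and −log10 q of at least 5). Leaving out a library changed the sign in 59 of 366 values, in 36 of 61 results, whose lowest to highest values follow. In peak number, they were -0.667 to 0.333 at NAB1 and -1 to 0.5 at NAB2. For the strongest peak, in percentile points, they were -1.08 to 0.116 at EGR1, -1.12 to 1.31 at EGR2, -3.18 to 3.40 at EGR4, -2.31 to 11.4 at NAB1 and -0.00459 to 2.07 at SRF. At the start, they were -1.08 to 0.116 at EGR1, -1.12 to 1.31 at EGR2, -1.80 to 23.8 at EGR4 and -10.3 to 3.59 at SRF. In kb under peaks, they were -0.388 to 0.195 at EGR1, -0.129 to 0.270 at EGR2, -0.278 to 0.206 at NAB1, -0.0728 to 0.574 at NAB2, -0.297 to 0.182 at CD69 and -0.477 to 0.0777 at SRF. In regions held by all 6 libraries, they were -1.12 to 1.31 at EGR2, -3.24 to 10.4 at CD69, -1.79 to 0.604, -0.711 to 6.69 and -3.02 to 5.94 at NAB2, -10.9 to 6.67, -5.53 to 13.3 and -11.9 to 0.401 at IER2, -5.00 to 6.0 and -1.80 to 23.8 at EGR4, -19.2 to 12.9 and -0.461 to 13.2 at NAB1, -1.08 to 0.116 at EGR1, -10.3 to 3.59, -3.89 to 0.205 and -8.06 to 5.42 at SRF and -9.68 to 0.14, -9.37 to 2.42 and -10.7 to 2.16 at EGR3. The causes were not tested. Of 5018 regions of the whole series held by 5 libraries, 2136 lacked NG 1, 278 NG 2, 593 NG 3, 561 SMG 1, 335 SMG 2 and 1115 SMG 3, beside lowest backgrounds of 1.17, 1.77, 1.42, 1.59, 1.73 and 1.59. SMG 1 and SMG 3 thus differed in missing regions at a like background, and the part of depth was not tested.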

Other observations

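The motifs searched at the members were differently common in start windows with and without peaks. The CRE core TGACG was in 39.2% of windows with a peak in all 6 libraries and in 19.3% of windows with none, the ETS core CCGGAA in 35.8% and 9.70%, and the full CRE TGACGTCA, which no window of a member held, in 3.86% and 1.12%. CArG boxes went the other way, with 0.895% and 1.49%, as did the AP-1 site TGANTCA, also in no window of a member, with 3.33% and 8.75%. These shares are descriptions, and GC content differs between the sets, with medians of 65.0 and 57.0%. Of the 8 windows with 2 or more CArG boxes, those of EGR1, SRF, ING4 and ZNF548 had a peak in all 6 libraries and those of ACTG2, AGPAT1, CUL4B and C19orf85 in none.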
